A study of Mus musculus with 2 samples.

Results

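The 10 genes described here are the core of the RAN cycle and of the transport receptors that it drives: the GTPase gene Ran, its regulators Ranbp1, Rcc1 and Rangap1, the import receptor genes Kpna2, Kpnb1 and Tnpo1, and the export receptor genes Xpo1, Xpo7 and Cse1l. They were taken by symbol, a rule that uses no measured value, from 43346 mouse genes, and each symbol matched 1 gene. Together they have 53 annotated transcripts, of which 39 had a value above 0 in at least 1 library. Polyadenylated RNA was sequenced from G1E-ER4, an immortalised mouse erythroid line described as male, in which GATA1 function has been restored to cells that lack it and is switched on by estradiol. All cells had received 10 nM 17beta-estradiol for 3 h. There was 1 group of 2 libraries, labelled biological replicates 1 and 2, whose labels cite the same cell sample record, so their spread, which is all that the p-values below measure, may be technical. The set has no untreated group, and every value is a level in treated cells rather than a change on treatment.

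RAN is a small GTPase that is kept bound to GTP in the nucleus and to GDP in the cytoplasm. The exchange factor RCC1 loads GTP on chromatin, and RANGAP1, helped by RANBP1, triggers hydrolysis outside the nucleus. Import receptors release their cargo on meeting RAN-GTP, whereas export receptors need RAN-GTP to hold theirs. Maturing erythroid cells reorganise and finally expel their nucleus, and XPO7 is known for a part in that process.

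The libraries differed in depth, with 31126956 expected counts in replicate 1 and 57853617 in replicate 2. All 8 erythroid markers reached 1 TPM (a unit of transcript abundance per transcript length, with an equal total for every library) in both libraries, but their sum was 2167 TPM in the first library and 17375 TPM in the other. The globin genes Hba-a1 (149 and 6606 TPM) and Hbb-bs (863 and 9484 TPM) made up most of that gap. No granulocyte, lymphocyte or stromal marker reached 1 TPM in both libraries, while 1 of 4 mast cell markers (Hdc) and 2 of 4 megakaryocyte markers (Itga2b and Gp1ba) did. These levels differ between the same libraries as the values compared below, and their part in those differences was not tested.

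For Ran, Ranbp1, Kpna2 and Xpo1 the level assigned to protein-coding transcripts was well below that of the gene in at least 1 library. Stretches where those transcripts part, though not all of their differences, are shown 5′ to 3′ from GENCODE M21 on GRCm38. They are given because the shares that follow are shares of these transcripts. The first pair starts at the start codon of Ran on chromosome 5 (plus strand), runs over 121 shared coding bases, and ends with 20 bases in capitals. In Ran-203, a transcript of 229 bases without an annotated coding sequence, these capitals are intronic bases (129020769 to 129020788) that close the transcript. In Ran-201, the main protein-coding transcript of 2377 bases, they are the first bases of exon 4 (129020866 to 129020885).
Ran-203: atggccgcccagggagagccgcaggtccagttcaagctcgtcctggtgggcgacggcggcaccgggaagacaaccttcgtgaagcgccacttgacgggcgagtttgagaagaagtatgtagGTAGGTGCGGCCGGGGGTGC
Ran-201: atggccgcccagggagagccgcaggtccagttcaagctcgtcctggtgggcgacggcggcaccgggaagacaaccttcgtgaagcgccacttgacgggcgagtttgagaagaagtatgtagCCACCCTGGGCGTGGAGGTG

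The second pair lies in Ranbp1 on chromosome 16 (minus strand), where 30 shared coding bases are followed by 60 bases in capitals. In Ranbp1-203, typed as a retained intron, the capitals are the first of 232 intronic bases (18245141 to 18245200) that end the transcript. In the protein-coding Ranbp1-202 they are the start of the next exon (18241814 to 18241873).
Ranbp1-203: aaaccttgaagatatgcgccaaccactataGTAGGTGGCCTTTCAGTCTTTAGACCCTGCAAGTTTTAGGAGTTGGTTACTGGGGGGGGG
Ranbp1-202: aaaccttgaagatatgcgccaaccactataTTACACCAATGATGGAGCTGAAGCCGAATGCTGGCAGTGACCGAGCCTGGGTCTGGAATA

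In Kpna2 on chromosome 11 (minus strand), Kpna2-206 lacks an exon of 89 bases that the protein-coding Kpna2-201 contains. That exon (106992603 to 106992691) is in capitals in the line for Kpna2-201, with 25 bases on each side. The line for Kpna2-206 joins the same flanks, and its capitals mark the stop codon that the annotation places just after the junction (106992112 to 106992114). Kpna2-206 is typed as a target of nonsense-mediated decay, with 225 annotated coding bases against 1587 in Kpna2-201. It also starts 101 bases downstream of the start of Kpna2-201. Its second exon starts 2227 bases from that point, against 2206 for Kpna2-201.
Kpna2-201: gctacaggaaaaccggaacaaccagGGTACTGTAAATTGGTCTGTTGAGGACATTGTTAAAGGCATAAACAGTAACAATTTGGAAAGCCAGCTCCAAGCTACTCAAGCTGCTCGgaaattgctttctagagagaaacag
Kpna2-206: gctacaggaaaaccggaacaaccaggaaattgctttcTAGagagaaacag

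In Xpo1 on chromosome 11 (plus strand), Xpo1-206, typed as a processed transcript without a coding sequence, has 13 exons against 25 in the protein-coding Xpo1-202. Of its 2902 bases, 1011 lie outside the exons of Xpo1-202. Its exon 3 runs 927 bases into the following intron (23267764 to 23268690), and it has an exon of 64 bases with no counterpart in Xpo1-202. That exon (23268849 to 23268912) is in capitals, with 20 bases on each side.
Xpo1-206: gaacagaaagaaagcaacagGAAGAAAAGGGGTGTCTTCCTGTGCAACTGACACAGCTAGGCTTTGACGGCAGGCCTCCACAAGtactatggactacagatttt

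**Figure D1:**
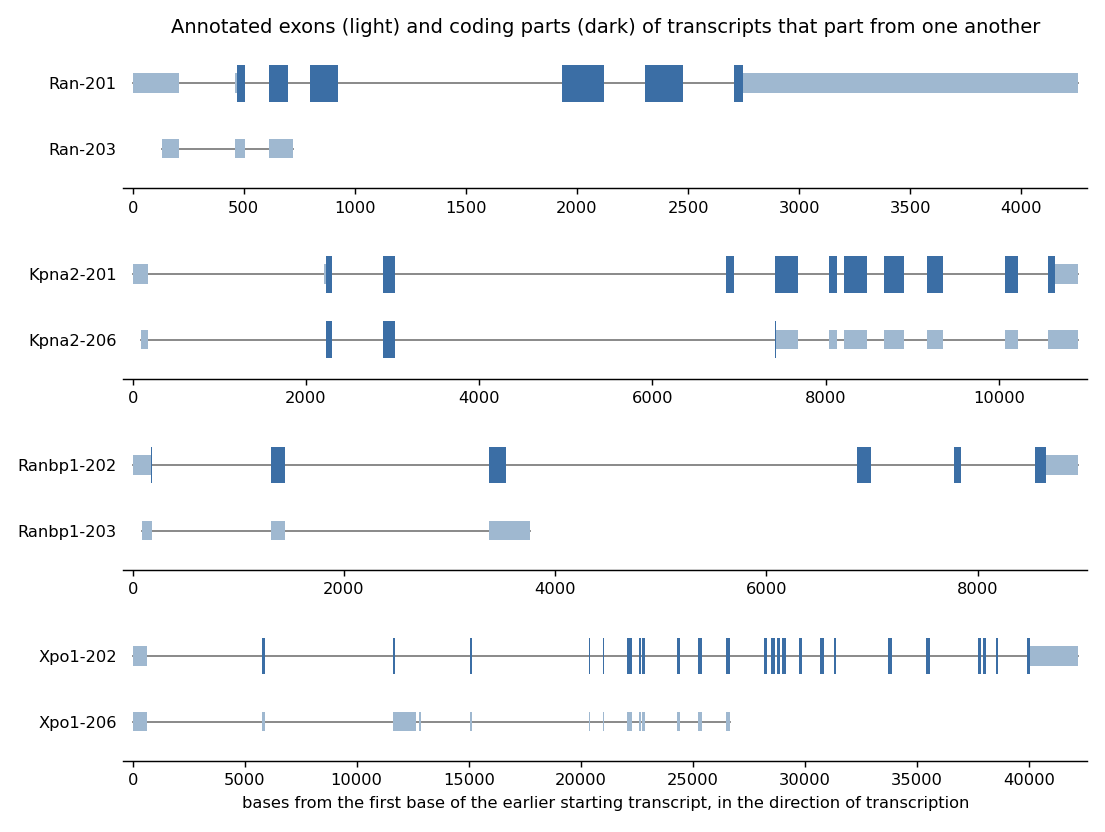
Exon maps of the transcripts whose sequences are printed, with the distance in bases along the direction of transcription on the horizontal axis, light boxes for exons and dark boxes for coding parts. Ran-203 ends 20 bases past the third exon of Ran-201, Ranbp1-203 ends 232 bases into an intron, Kpna2-206 lacks the exon of 89 bases and has no coding part after the next junction, and Xpo1-206 stops after 13 exons.

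The GTPase gene Ran (chr5:129020069-129024323, plus strand of GRCm38, as for the loci below) had the highest TPM of the 10 genes, 9192 in replicate 1 and 4328 in replicate 2, a mean of 6760.1 ± 3439 (SD, n = 2). By mean TPM it ranked 14 among all genes. The reads behind these levels were 46197 and 87006 expected counts. Scaled for library size (counts divided by library sizes adjusted by the TMM method and multiplied by 1000000, called scaled counts below), Ran stood at 1398 and 1596. TPM was thus higher in replicate 1 and scaled counts higher in replicate 2, the only such opposition among the 10 genes. Opposite directions of this kind were found in 16.7% of 10580 genes.

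Almost all of Ran's TPM lay on the 229-base Ran-203, with 94.9% in replicate 1 and 85.8% in replicate 2. The same transcript held 43.4% and 17.3% of the gene's expected counts. In the deposited tables its effective length, the number of positions at which a fragment can start, was 92.6 bases in replicate 1 and 77.5 bases in replicate 2, against 2241 and 2225 bases for Ran-201. Ran-201 held 42.3% and 72.2% of the counts but 3.82% and 12.4% of the TPM. Among 1449 protein-coding genes whose mean TPM was 100 or more, 7 (0.483%) were led by a transcript under 300 bases. Over protein-coding transcripts alone, Ran had levels of 468 and 615 TPM in replicates 1 and 2 and ranked 183. On that scale replicate 2 was the higher library, as it was for the scaled counts.

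Ranbp1 (chr16:18239784-18248732, minus strand), whose product binds RAN-GTP and assists its hydrolysis, was second with 2173 and 1583 TPM (1878 ± 418, SD, n = 2). Its expected counts were 39656 and 54694, and its scaled counts 1200.2 and 1004. Replicate 1 was higher on both scales. The retained-intron transcript Ranbp1-203 held 46.4% of the TPM in replicate 1 and 59.5% in replicate 2, and the protein-coding Ranbp1-202 held 53.6% and 40.4%. By share of TPM the leading transcript therefore differed between the libraries. Its protein-coding transcripts alone gave 1165 and 639 TPM, above those of Ran in each library.

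Rangap1 (chr15:81704248-81745530, minus strand), the GTPase-activating protein gene, had 177 TPM in replicate 1 and 136 TPM in replicate 2 (157 ± 28.9, SD, n = 2). Rcc1 (chr4:132331919-132353605, minus strand), the gene of the chromatin-bound exchange factor, had 102 and 104 TPM (103 ± 1.76, SD, n = 2). The ranges of these genes did not overlap, and both were carried by protein-coding transcripts. Rangap1-201 held 93.7% and 96.5% of its gene's TPM, and Rcc1-202 held 88.3% and 84.6%. Rangap1 gave 12380 and 20010 expected counts, and its scaled counts (375 and 367) were the closest between libraries of the 10 genes. Rcc1 gave 5299 and 11189 expected counts, or 160.4 and 205 scaled counts, so that its TPM was nearly equal in the libraries while its scaled counts were higher in replicate 2.

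**Figure D2:**
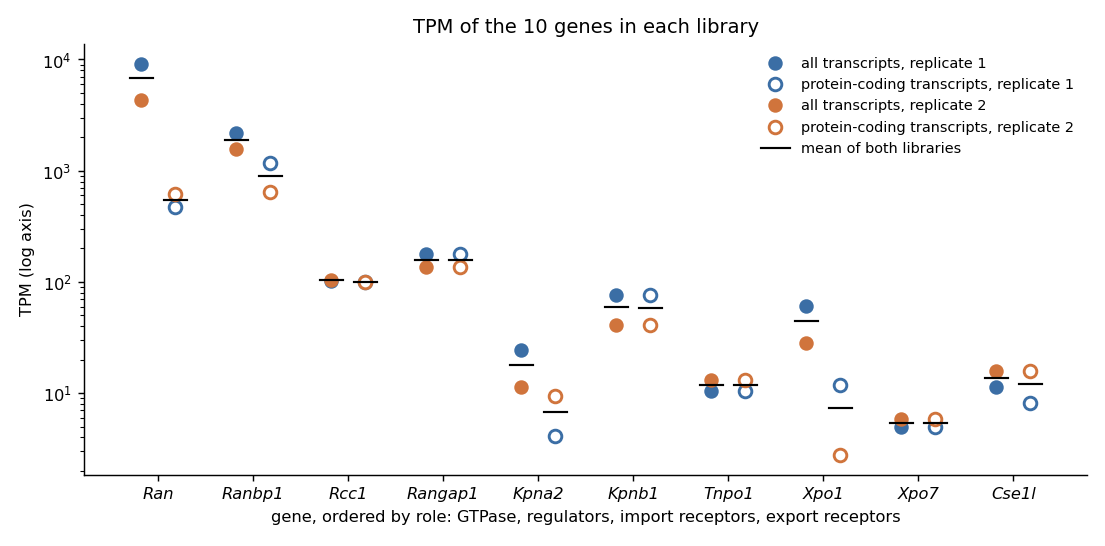
TPM of each gene on a log axis, with filled points for all transcripts, open points for protein-coding transcripts only, blue for replicate 1, orange for replicate 2 and bars for the mean of both libraries. Ran goes from a mean of 6760.1 TPM to 542 TPM and Xpo1 from 44.6 TPM to 7.30 TPM when only protein-coding transcripts are counted, and Rangap1, Kpnb1, Tnpo1 and Xpo7 hardly move.

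Among the import receptors, Kpnb1 (chr11:97159714-97187881, minus strand), which encodes importin beta, had the highest level, with 77.1 TPM in replicate 1 and 41.0 TPM in replicate 2 (59.05 ± 25.5, SD, n = 2). Nearly all of it was the protein-coding Kpnb1-201, with 99.4% and 99.2% of the TPM. Its expected counts were 10953 and 12263. Replicate 1 was the higher library in TPM and in scaled counts (331 and 225).

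Kpna2 (chr11:106988629-106999541, minus strand), an importin alpha gene whose product links cargo to importin beta, had 24.2 TPM in replicate 1 and 11.4 TPM in replicate 2 (17.8 ± 9.04, SD, n = 2). It was led by different kinds of transcript in the libraries. Kpna2-206, which lacks the 89-base exon and has a different 5′ end, held 83.0% of the TPM in replicate 1 and 17.1% in replicate 2. Which of its differences from Kpna2-201 its reads covered was not tested. The protein-coding Kpna2-201 held 5.67% and 79.6%. In expected counts, Kpna2-206 had 850.5 and 173, and Kpna2-201 had 65.3 and 907. The TPM intervals that the authors deposited for Kpna2-206 (17.4 to 21.3 in replicate 1 and 0.917 to 3.58 in replicate 2) did not overlap, nor did those for Kpna2-201 (0.413 to 2.68 and 7.60 to 9.99). The level of these intervals is not given in the sources used here. As a gene Kpna2 was higher in replicate 1, and over its protein-coding transcripts alone (4.12 and 9.48 TPM) it was higher in replicate 2. Kpna2 was also the only one of the 10 genes whose deposited counts carried a posterior SD above 1 count (24.6 and 34.1). Such a spread arises where reads are divided between genes, and in that respect its counts are less certain than the rest. It does not cover how reads are divided among transcripts of the same gene, or the transcript length used.

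Tnpo1 (chr13:98839019-98926384, minus strand), the gene of transportin 1, which imports many RNA-binding proteins, had 10.4 TPM in replicate 1 and 13.2 TPM in replicate 2 (11.8 ± 1.95, SD, n = 2). Its expected counts were 1730 and 3079. All of its 4 transcripts are protein-coding, and the mix differed between libraries. The 8453-base Tnpo1-202 held 70.9% of the TPM in replicate 1 and 38.5% in replicate 2, and the 2503-base Tnpo1-204 held 19.7% and 37.8%.

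Among the export receptors, Xpo1 (chr11:23256041-23298249, plus strand), the gene of CRM1, which exports proteins with leucine-rich signals, had 61.1 TPM in replicate 1 and 28.0 TPM in replicate 2 (44.6 ± 23.4, SD, n = 2). Its expected counts were 5067 and 4442. Most of that level lay on the processed transcript Xpo1-206, with 80.7% and 90.1% of the TPM and 66.8% and 81.9% of the counts. The protein-coding transcripts of Xpo1 gave 11.8 and 2.77 TPM in replicates 1 and 2. Xpo1 was higher in replicate 1 whether all or only its protein-coding transcripts were counted.

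Cse1l (chr2:166906040-166946389, plus strand), whose product returns importin alpha to the cytoplasm, had 11.4 TPM in replicate 1 and 15.9 TPM in replicate 2 (13.6 ± 3.19, SD, n = 2). Its expected counts, 836 and 2899, were the fewest of the 10 genes in replicate 1. The protein-coding Cse1l-201 held 71.6% of the TPM in replicate 1 and 99.6% in replicate 2. The rest in replicate 1 was assigned to retained-intron transcripts (20.5%) and to Cse1l-211, typed for nonsense-mediated decay (7.93%).

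Xpo7 (chr14:70654246-70766628, minus strand), the gene of the exportin with a known part in erythroid nuclear maturation, had the lowest level of the 10 genes, with 4.95 TPM in replicate 1 and 5.92 TPM in replicate 2 (5.43 ± 0.69, SD, n = 2). All of it was assigned to Xpo7-201. The expected counts, 1839 and 4646, exceeded those of Tnpo1, Kpna2 and Cse1l. The deposited tables give Xpo7-201 a length of 15118 bases, whereas M21 gives 4472 bases under the same identifier. If all of its counts fell within the shorter model, the level would be 17.1 and 20.5 TPM (18.8 ± 2.41, SD, n = 2), which is an upper value, since reads from the rest of the longer model are counted too. Its last place therefore depends on the length used. The other genes were little touched by this: 49 of the 53 transcripts had equal lengths, and the other 3 that did not were Rangap1 transcripts.

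In mean TPM the order was Ran, Ranbp1, Rangap1, Rcc1, Kpnb1, Xpo1, Kpna2, Cse1l, Tnpo1 and Xpo7. The ranges of the libraries overlapped between Kpnb1 and Xpo1, between Kpna2 and Cse1l, and between Cse1l and Tnpo1, so the order of those neighbours is not settled by the spread of the libraries. Within each library Xpo1 was nevertheless below Kpnb1 and Cse1l above Tnpo1, while Kpna2 and Cse1l changed places. This order is for all transcripts. Over protein-coding transcripts Cse1l (8.16 and 15.8 TPM) was above Tnpo1 (10.4 and 13.2 TPM) in replicate 2 only. On that scale Xpo1 (11.8 and 2.77 TPM) was above Kpna2 (4.12 and 9.48 TPM) in replicate 1 only. All 10 genes reached 1 TPM in both libraries, a level met by 20.2% of all genes. That background holds genes of every type and had a median of 0 TPM, whereas the 10 genes are all protein-coding. The GTPase and its 3 regulators reached 100 TPM in both libraries, which 2.63% of all genes did, and none of the 6 receptor genes did. Rcc1 passed this level narrowly: its posterior mean TPM was 99.8 in replicate 1, and its protein-coding transcripts gave 99.0 and 99.2 TPM.

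Across the 9 genes with more than 1 transcript above 0, the leading transcript differed between the libraries for 2 (Ranbp1 and Kpna2). This is counted by share of TPM. By share of expected counts Ranbp1-202 led in both libraries (69.1% and 57.2%), and the genes with a different lead were Ran, where Ran-203 led narrowly in replicate 1 and Ran-201 in replicate 2, and Kpna2. The background by share of TPM was 28.5% of 6011 genes with 2 or more transcripts above 0 and a mean TPM of 1 or more. A transcript that is not protein-coding led in both libraries for 2 of the 9 (Ran and Xpo1), against 20.3% of those genes, and in at least 1 library for 4 of the 9, against 34.4%. The 10 genes thus stood near the background on these counts. The assignment of reads to overlapping transcripts is an estimate, and how far it set these shares was not tested.

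**Figure D3:**
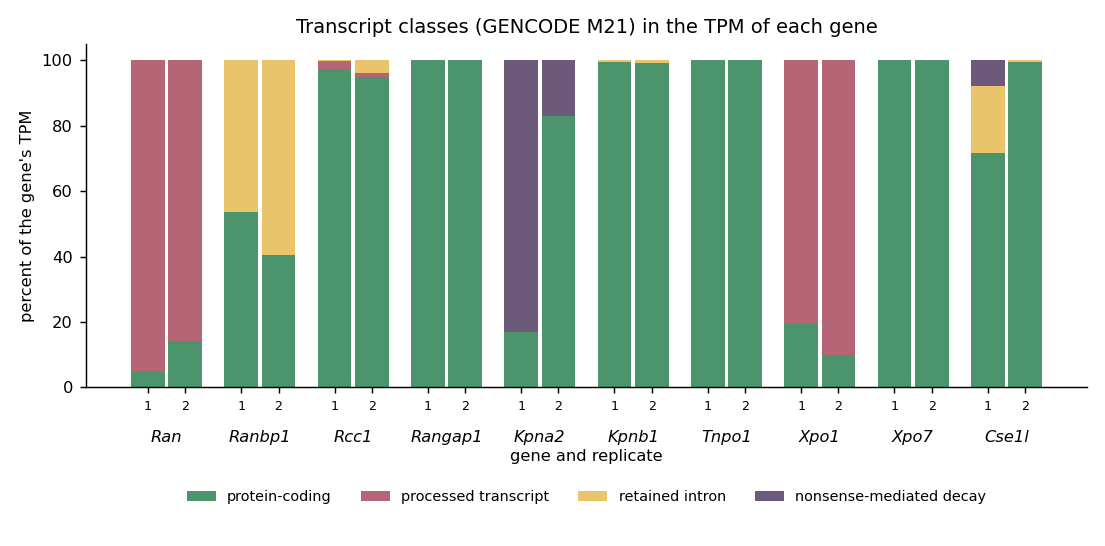
Percent of each gene's TPM by transcript class, stacked, with replicate 1 on the left and replicate 2 on the right of each pair of bars. Ran and Xpo1 are mostly processed transcript in both libraries, Ranbp1 is divided between protein-coding and retained-intron transcripts, and Kpna2 changes from 83.0% to 17.1% of nonsense-mediated decay transcript between replicate 1 and replicate 2.

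The libraries were then compared gene by gene on scaled counts, with a two-sided exact binomial test and Benjamini-Hochberg adjustment over 10635 genes with a summed count of at least 20. No condition is tested in this way, and the only error it takes into account is counting noise. At an adjusted p under 0.05, 9 of the 10 genes differed, against 80.7% of all genes tested. Of the 9, 4 were higher in replicate 1 (37.4% of all genes) and 5 in replicate 2 (43.3% of all genes). A difference of at least 2-fold was found for 1 of the 10, against 26.8% of all genes, with 7.32% of all genes past it in replicate 1 and 19.5% in replicate 2. The median log2 ratio of replicate 2 over replicate 1 was 0.04 over the 10 genes and 0.06 over all genes tested.

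Cse1l was the gene past 2-fold, with 25.3 scaled counts in replicate 1 and 53.2 in replicate 2, a log2 ratio of 1.07 (95% interval 0.96 to 1.18 from the exact binomial test, adjusted p = 3.26e-89). With total counts as library sizes Cse1l stood at 0.90, and Xpo1 (-1.08) was the only one of the 10 past 2-fold. Xpo7 followed with 55.7 and 85.2 scaled counts, a log2 ratio of 0.61 (0.54 to 0.69). Rcc1 (0.36) and Ran (0.19) were also higher in replicate 2, each beyond counting noise. Tnpo1 was close to even, with 52.4 and 56.5 scaled counts, a log2 ratio of 0.11 (0.02 to 0.20) and an adjusted p of 0.015 by the exact binomial test. That call was lost and its direction reversed with total counts (-0.063, adjusted p = 0.174 by the same exact test).

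At the other end, Xpo1 had 153 scaled counts in replicate 1 and 81.5 in replicate 2, a log2 ratio of -0.91 (-0.97 to -0.85, adjusted p = 4.12e-206 by the exact binomial test). Kpnb1 (-0.56) and Kpna2 (-0.53, with 28.9 and 20.04 scaled counts) were higher in replicate 1 by similar amounts, and Ranbp1 (-0.26) by less. Rangap1 had a log2 ratio of -0.03 (-0.06 to 0.00, adjusted p = 0.0923 by the exact binomial test), and its difference did not exceed counting noise. It did with total counts (-0.20, adjusted p = 1.71e-33 by the exact test) and with RLE size factors (-0.04, adjusted p = 0.0285 by the exact test). On scaled counts the 3 export receptor genes lay at both ends of the 10, with Xpo1 lowest and Xpo7 and Cse1l highest in replicate 2 relative to replicate 1. On TPM Xpo1 was again lowest (-1.10) and Cse1l highest (0.45), but Xpo7 (0.22) was below Tnpo1 (0.31). Over protein-coding transcripts Kpna2 was highest (1.03) and Cse1l next (0.88), with Xpo1 at -1.77.

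**Figure D4:**
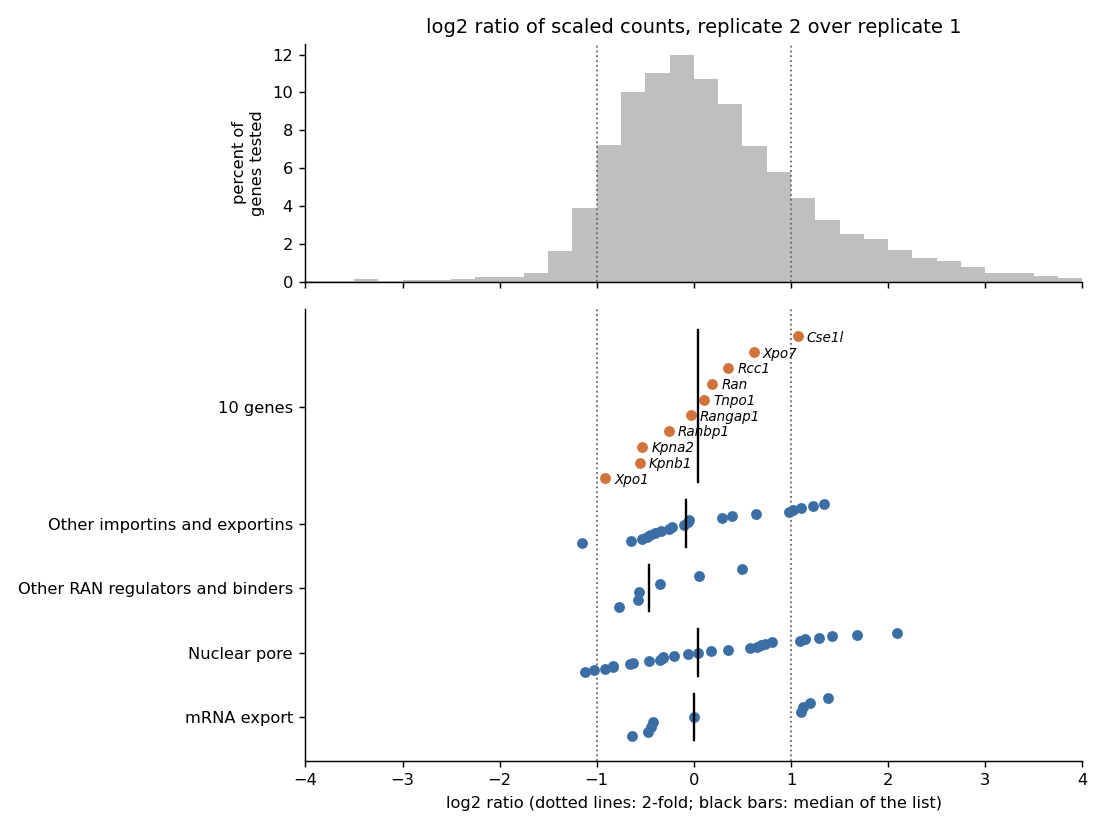
Upper panel, percent of genes tested by log2 ratio of scaled counts (replicate 2 over replicate 1). Lower panel, the same ratio on the horizontal axis for the 10 genes and for 4 lists of other transport genes, 1 point per gene, with black bars for medians and dotted lines at 2-fold. The 10 genes run from -0.91 for Xpo1 to 1.07 for Cse1l.

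Partners of the cycle were compared within each library by the log2 ratio of TPM with a pseudocount of 1. With 2 libraries no test was made. Of 8 pairs, 7 had the same sign in both libraries. The importin beta gene exceeded this importin alpha gene, with a ratio of Kpnb1 to Kpna2 of 1.63 in replicate 1 and 1.76 in replicate 2. Over protein-coding transcripts these were 3.92 and 1.99. It also exceeded transportin 1, with 2.77 and 1.57 for Kpnb1 to Tnpo1. Rcc1 to Rangap1 stood at -0.79 and -0.38, so the exchange factor gene was below the activating protein gene. Ranbp1 to Rangap1 was 3.61 and 3.53, and 2.71 and 2.22 over protein-coding transcripts.

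Xpo1 to Kpnb1 was -0.33 and -0.54, and Xpo1 to Xpo7 was 3.38 and 2.07. Over protein-coding transcripts the first of these went to -2.60 and -3.47, and the second took opposite signs in the libraries, 1.11 and -0.88. The second also took opposite signs on expected counts, 1.46 and -0.06. Its TPM values rest on the 15118-base length of Xpo7-201. The upper values of Xpo7 with the M21 length were 17.1 TPM in replicate 1 and 20.5 TPM in replicate 2. Those lie below Xpo1 over all transcripts (61.15 and 27.99 TPM) but above its protein-coding transcripts (11.8 and 2.77 TPM). Cse1l to Kpna2, a receptor and the cargo it returns, was the pair with opposite signs in TPM over all transcripts, -1.03 in replicate 1 and 0.44 in replicate 2. Over protein-coding transcripts it was positive in both, with 0.84 and 0.68. Ran to Ranbp1 was 2.08 and 1.45 over all transcripts, and -1.31 and -0.06 over protein-coding transcripts. The order of these most abundant members of the cycle thus reversed with the transcripts that were counted, though narrowly in replicate 2. The protein-coding level of Ran rests on the annotated length of Ran-201, 2377 bases of which 1729 are untranslated. Whether these cells use that full length was not tested.

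**Figure D5:**
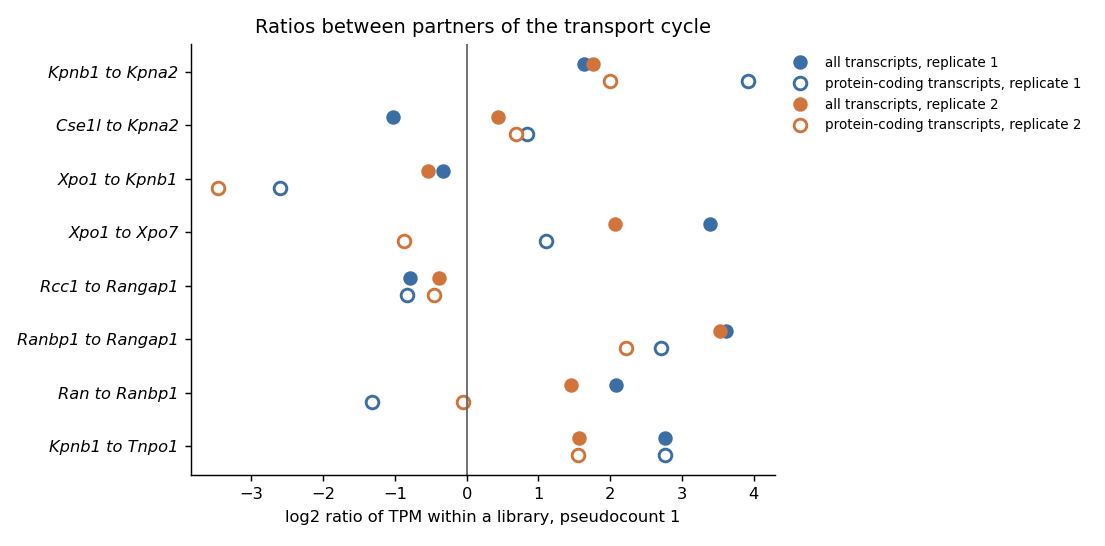
log2 ratio of TPM within a library (horizontal axis, pseudocount 1) for 8 pairs of genes, with filled points for all transcripts, open points for protein-coding transcripts, blue for replicate 1 and orange for replicate 2. Ran to Ranbp1 moves from positive to negative values, Cse1l to Kpna2 moves to positive values in both libraries, and Rcc1 to Rangap1 and Kpnb1 to Tnpo1 stay nearly in place.

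The wider transport machinery was read from 4 lists of protein-coding genes. Beside them, 20.2% of all genes, of every type, reached 1 TPM in both libraries. Of 21 other importin and exportin genes, 18 reached 1 TPM in both libraries. Of the 20 tested, 9 were higher in replicate 1 (37.4% of all genes) and 8 in replicate 2 (43.3%) beyond counting noise. Their median log2 ratio was -0.08. Past 2-fold were 1 in replicate 1 and 4 in replicate 2, against 7.32% and 19.5% of all genes. The highest was Xpo6, which exports actin complexes, with 169 and 154 TPM, above every receptor among the 10 genes over all transcripts. Its protein-coding transcripts gave 120.1 and 21.5 TPM, in replicate 2 below those of Kpnb1. Kpna1, another importin alpha, had 101 and 61.2 TPM, of which 7.39% and 6.03% came from protein-coding transcripts. Tnpo3, which imports splicing factors, had 46.3 and 89.3 TPM, of which protein-coding transcripts gave 11.2 and 11.5 TPM. Kpna7, an importin alpha, was lowest, with 1 count in replicate 1 and 0 in replicate 2.

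Of 7 other regulators and binders of RAN, 5 reached 1 TPM in both libraries. Of the 6 tested, 3 were higher in replicate 1 (37.4% of all genes) and 2 in replicate 2 (43.3%) beyond counting noise. Their median log2 ratio was -0.46, and none was past 2-fold, against 26.8% of all genes. Rcc2, a relative of Rcc1, had 371 and 410.5 TPM, several times the level of Rcc1. It is listed as a relative, and any action on RAN was not measured. Ranbp3, a cofactor of CRM1, had 124 and 101 TPM, and Nutf2, which carries RAN-GDP back into the nucleus, had 36.9 and 22.8 TPM. Ranbp3l had no count in either library.

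Of 27 nuclear pore genes, 26 reached 1 TPM in both libraries. All 27 were tested, and 12 were higher in replicate 1 (37.4% of all genes) and 14 in replicate 2 (43.3%) beyond counting noise. Their median log2 ratio was 0.05. Past 2-fold were 2 in replicate 1 and 6 in replicate 2, against 7.32% and 19.5% of all genes. Over all transcripts Tpr, of the nuclear basket, led with 307 and 274 TPM, followed by the membrane nucleoporin gene Pom121 (136 and 136 TPM) and Ahctf1 (182 and 75.8 TPM), whose product ELYS starts pore assembly on chromatin. Over protein-coding transcripts Pom121 (136 and 136 TPM) was above Tpr (42.1 and 17.3 TPM) and Ahctf1 (21.7 and 9.10 TPM). Nup43 was lowest with 1.89 and 0.80 TPM. Aaas was the only gene of the 4 lists past 4-fold, with 30.1 scaled counts in replicate 1 and 128 in replicate 2, a log2 ratio of 2.09.

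Of 9 mRNA export genes, 8 reached 1 TPM in both libraries. All 9 were tested, and 4 were higher in replicate 1 (37.4% of all genes) and 4 in replicate 2 (43.3%) beyond counting noise. Their median log2 ratio was 0.00. The 4 higher in replicate 2 were all past 2-fold, against 19.5% of all genes, and none was in replicate 1, against 7.32%. The adaptor gene Alyref had 688 and 538 TPM, the helicase gene Ddx39b 153 and 320 TPM, and Gle1 98.0 and 65.9 TPM. Gle1 was higher in replicate 1 by TPM and in replicate 2 by scaled counts (38.7 and 84.3), as was Ran. Over protein-coding transcripts Gle1 had 5.30 and 18.7 TPM and was not among the 3 highest of the list. On that scale Alyref had 236 and 116 TPM, and Ddx39b 48.7 and 216 TPM. Thoc1 was lowest with 1.03 and 0.59 TPM.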

How the data were processed

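RNA of 1 group was measured in 2 libraries. Per the text deposited with the tables, reads were placed on mm10 and quantified with GENCODE M4. Which aligner and quantifier made them is not given in the sources used here. The deposited expected counts, TPM, FPKM, posterior means and percent of a gene's TPM per transcript are the authors' estimates, per the file headers. Symbols, transcript types, coordinates and sequences came from GENCODE M21 (GRCm38).

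Levels are mean ± SD of TPM. Expected counts were rounded, library sizes were scaled by TMM (edgeR 4.0.16), and an exact conditional binomial test compared the libraries, since 1 library on each side leaves edgeR's quasi-likelihood test no residual degrees of freedom. Ratios of scaled counts used a prior count of 2. The test was first tested on simulated counts. Intervals cover counting error only.

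The 10 genes, the lists and the tests were chosen with earlier results of these data known. Named were the 10 genes, the 3 highest and the lowest of each other list by mean TPM, and any gene of those lists past 4-fold. Kpna5, Nup58 and Nup62 had no match. Alternatives were posterior means, rescaled FPKM, other pseudocounts, filters, prior counts and library scalings, and each library alone. Values over protein-coding transcripts, per kilobase of the longest protein-coding transcript, without Ran-203, with the M21 length of Xpo7-201, and shares of expected counts were added after seeing the data.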

Additional observations from a re-analysis of the deposited data

How the results depend on the processing

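The counts of genes beyond counting noise and of shared leading transcripts stayed within 1.5 times their reported value under each alternative run, though by share of expected counts the genes with a different lead were Ran and Kpna2, not Ranbp1 and Kpna2. The median log2 ratio of the 10 genes was -0.13 with total counts as library sizes, which moved the median of all genes from 0.06 to -0.11, and -0.42 on TPM, where that of all genes was -0.22. The number of the 10 genes past 2-fold was 3 on TPM (24.3% of all genes) and 2 on the TPM of protein-coding transcripts (20.9%). With total counts it was 1, but Xpo1 in place of Cse1l. Ran to Ranbp1 reversed to a mean of -0.68 over protein-coding transcripts and to -0.71 on scaled counts per kilobase of the longest protein-coding transcript. On TPM the log2 ratio of Ran between libraries reversed to -1.09, and on the TPM of protein-coding transcripts that of Kpna2 reversed to 1.03. Tnpo1 reversed to -0.063 with total counts (adjusted p = 0.174 by the exact binomial test). Rangap1 passed the threshold with total counts (log2 ratio -0.20) and with RLE size factors (-0.04). For these the cause was not tested, except that the transcripts left out set the protein-coding values, which also rest on annotated lengths. No paired analysis was possible because there is 1 group. Depth limits Kpna7, Ranbp3l and other genes with few counts, where a count of 0 allows up to 3 counts in a library.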
